A study of Mus musculus with 12 samples.

Results

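The Mouse Gene 1.0 ST array measured 35556 probe sets in N2A cells, a mouse neuroblastoma line, and 12146 of them (34.2%) had no gene symbol in the platform annotation used here. These 12146 unnamed probe sets were chosen by that absence alone, so no measured value entered the choice. The other 23410 probe sets carried symbols, 21789 of them a single symbol and 1621 several. Control cells were stably transfected with a non-targeting shRNA vector, and KD cells with an shRNA vector against Dali, a long non-coding RNA. Each kind of cell was profiled while proliferating in 10% serum without retinoic acid and after 72 h in 20 µM all-trans retinoic acid (RA) with 2% serum, with 3 arrays per group and 12 in all. RA and low serum were applied together and cannot be told apart. All cells were drug-selected after transfection as resistant clones, and no label tells if the replicates of a group are 1 clone or several, so the p-values reflect only how these samples vary. The paper describes a stable non-targeting control line, so differences between selected lines cannot be told apart from the knockdown. The array annotation holds no probe set for Dali, which left the knockdown without a check here. Of the 6 neuroblast marker genes measured, 4 lay above the 75th percentile of level, as did 3 of 5 neuronal markers and none of 10 glial, fibroblast, immune or endothelial markers.

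A probe set on this kind of array is a group of short oligonucleotides spread along the exons of a transcript, summarised as a single value. Retinoic acid acts through nuclear receptors and drives neuroblastoma cells out of the cell cycle towards a neuron-like state. A missing symbol can have several sources. Such arrays carry control probe sets that are not meant to measure a gene, as well as sets for predicted transcripts, repeated genes and small RNAs that the annotation does not tie to a gene. The sources used here do not mark which unnamed set is of which kind, and give neither sequences nor positions for them. Each is therefore described by its identifier (ID) and by its place among the named IDs.

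By ID, the unnamed probe sets fell into 2 classes. The first was an unbroken block of 6617 sets (54.5% of the unnamed), with IDs from 10338001 to 10344622, below the lowest ID of any named set (10344624). Within this low-ID block 6611 of 6616 steps between successive IDs were exactly 1. The other 5529 sets were interspersed: 5438 lay among the named IDs and 91 lay above the highest named ID. Among the named sets the IDs followed the genome, since 94.3% of 21694 successive single-symbol IDs lay on the same chromosome in the RefSeq annotation. Of the 5438 interspersed sets, 4524 (83.2%) stood next to a single-symbol ID. Place among the IDs is thus a hint of place in the genome for the interspersed sets, and carries no such hint for the low-ID block.

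Unnamed probe sets had a lower median level than named ones. Levels here are log2 values averaged over the 12 arrays. The median level was 6.81 for all unnamed sets, 7.01 in the low-ID block and 6.57 for the interspersed sets, against 7.44 for single-symbol and 7.19 for several-symbol sets. Levels below 4 were held by 9.29% of the unnamed, 2.82% of the single-symbol and 5.31% of the several-symbol sets. The lower quartiles of the unnamed and several-symbol sets were alike, at 5.53 and 5.52, against 6.11 for single-symbol sets. At the other end, 7.91% of the unnamed and 11.1% of the single-symbol sets lay at 10 or above. The unnamed sets were thus not all dim, and they spanned nearly the whole range of the array, from 1.91 to 14.1.

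**Figure D1:**
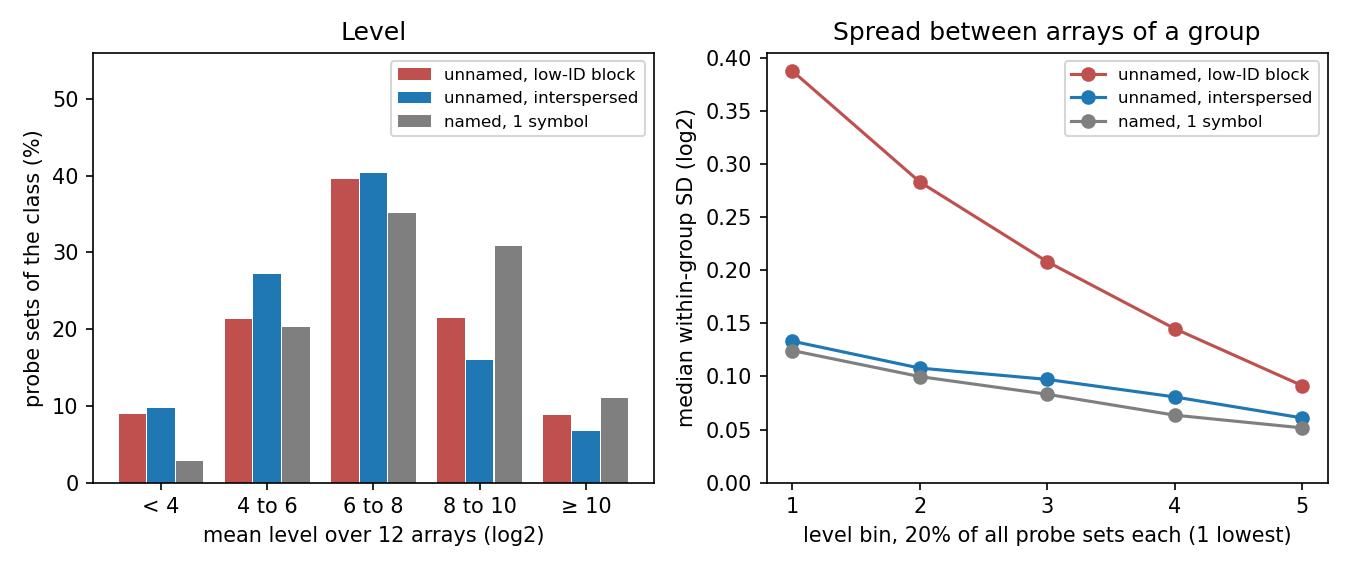
Left, share of each class of probe sets (%) in 5 ranges of mean level (log2) over the 12 arrays. Right, median within-group SD (log2) in 5 equal bins of all 35556 probe sets ordered by level. Unnamed sets were shifted towards low levels relative to single-symbol sets. The low-ID block had the highest spread in each bin, 0.388 in the lowest.

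The extremes of level are set by single members. The highest unnamed set, 10608690, measured 14.1 to 14.2 in each of the 12 arrays, and 10608691 lay next to it in ID and in level (mean 14.1). Both stood above the last named ID, and neither was called in any comparison. The lowest, 10342265 and 10343254, both averaged 1.91 and both belonged to the low-ID block. The values of 10342265 ran from 1.65 to 2.13 without separating any groups.

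Replicate arrays differed far more in the low-ID block than elsewhere. The within-group SD of a probe set, pooled over the 4 groups, had a median of 0.214 in the block, 0.104 for interspersed sets and 0.078 for single-symbol sets. Spread falls with level, so it was also compared at matched level. In the lowest 20% of all probe sets by level the medians were 0.388, 0.133 and 0.124, and in the highest 20% 0.091, 0.061 and 0.052, in the same order. Interspersed sets were therefore close to named sets of the same level, whereas the block was not. Pairs of arrays from the same group correlated at 0.977 to 0.987 across the block, 0.995 to 0.998 across the interspersed sets and 0.997 to 0.998 across the single-symbol sets. These correlations are across probe sets, which are not independent replicates.

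The largest spread of any unnamed set belonged to 10341354 in the block, with an SD of 1.66. Control array 3 read 2.40, while the other 11 arrays lay between 7.18 and 8.13, so a single array made this spread. The next, 10341288, had an SD of 1.40. Its control arrays read 2.41, 3.03 and 2.91, its RA-treated control arrays 2.42, 4.94 and 1.72, its KD arrays 3.91, 2.33 and 2.11 and its RA-treated KD arrays 1.63, 4.96 and 5.14. The high and low readings of this set fell within groups rather than between them.

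The median of the low-ID block moved with the groups. It was 7.03, 7.02 and 6.98 in the control arrays, 6.996, 6.93 and 6.87 in the RA-treated control arrays, 7.05, 7.03 and 7.03 in the KD arrays and 7.19, 7.15 and 7.09 in the RA-treated KD arrays. The 3 RA-treated KD arrays thus stood above the 9 others. The interspersed medians lay between 6.52 and 6.62 and overlapped between RA-treated KD cells (6.55 to 6.62) and RA-treated control cells (6.52 to 6.56). Single-symbol medians overlapped as well, at 7.40 to 7.46 and 7.42 to 7.45. The cause of the shift of the block was not tested, and it enters each comparison that holds RA-treated KD arrays.

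**Figure D2:**
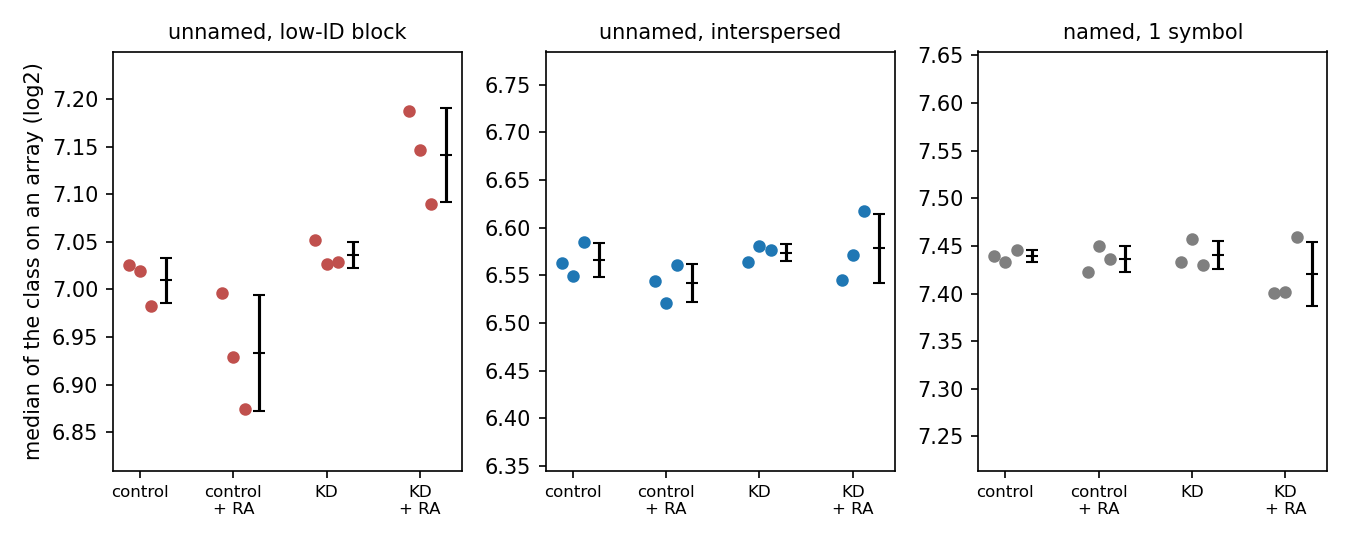
Each point is the median level (log2) of a class of probe sets on 1 array; black marks give the mean and SD over the 3 arrays of the group. The 3 vertical axes start above 0 and span the same height. The low-ID block was highest in the 3 RA-treated KD arrays, 7.09 to 7.19, while the interspersed and single-symbol medians overlapped between groups.

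The first question was which unnamed sets differed between KD and control cells. Differences were tested with limma over all 35556 probe sets and called at a Benjamini-Hochberg adjusted p below 0.05 and a change of at least 1.3-fold. In proliferating cells 481 unnamed sets passed, 298 rising and 183 falling in KD cells. That is 3.96% of the unnamed sets, against 3.52% of all probe sets (2.07% higher and 1.45% lower) and 3.32% of single-symbol sets. The low-ID block held 241 of the calls (131 higher, 110 lower) and the interspersed sets 240 (167 higher, 73 lower). The balance in the block was not stable: it was 78 higher and 89 lower without control array 3, 97 and 102 without KD array 1, 116 and 122 when quantile normalised again and 113 and 136 with the block centred on its own median in each array, and without KD array 2 the rises numbered 87. The median difference was close to 0 in every class, at 0.02 in the block, -0.02 for interspersed sets and -0.01 for single-symbol sets. Without the stretch of 134 sets described below, 345 unnamed sets were called and the excess of rises was gone, with 165 higher and 180 lower.

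After RA the KD difference touched more unnamed sets. Of the 12146, 988 were called (8.13%, against 5.35% of all probe sets and 3.73% of single-symbol sets), 838 higher and 150 lower. Of all probe sets 3.58% were called higher and 1.77% lower. The block gave 665 of them, 587 higher and 78 lower, and 10.0% of its members were called; the rises numbered 385 without RA-treated control array 3 and 360 with only the RA-treated arrays in the fit. The interspersed sets gave 323, 251 higher and 72 lower. The median difference was 0.15 in the block, where 70.1% of the sets lay above 0, but -0.02 for interspersed and -0.03 for single-symbol sets. The direction in the block depended on how its common shift was handled. When the block was centred on its own median in each array, 919 unnamed sets were called, with 387 higher and 532 lower. In the block alone 136 were higher and 460 lower. Centring makes the block median equal on all arrays by construction, and the shift differed with level, as given below. The split after centring therefore cannot show what the direction rested on. The interspersed counts do not depend on that choice.

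The shift in the block was not uniform over level. With all probe sets cut into 5 equal bins by level, from lowest to highest, the median KD difference after RA in the block was 0.18, 0.21, 0.19, 0.14 and 0.04. In the same bins it lay between -0.03 and 0.00 for interspersed sets and between -0.04 and -0.01 for single-symbol sets. The share of block sets called rose from 4.15% in the lowest bin to 16.6% in bin 4 and was 8.02% in the highest, while the share of all probe sets in the same bins was 2.32%, 7.38% and 5.58%.

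**Figure D3:**
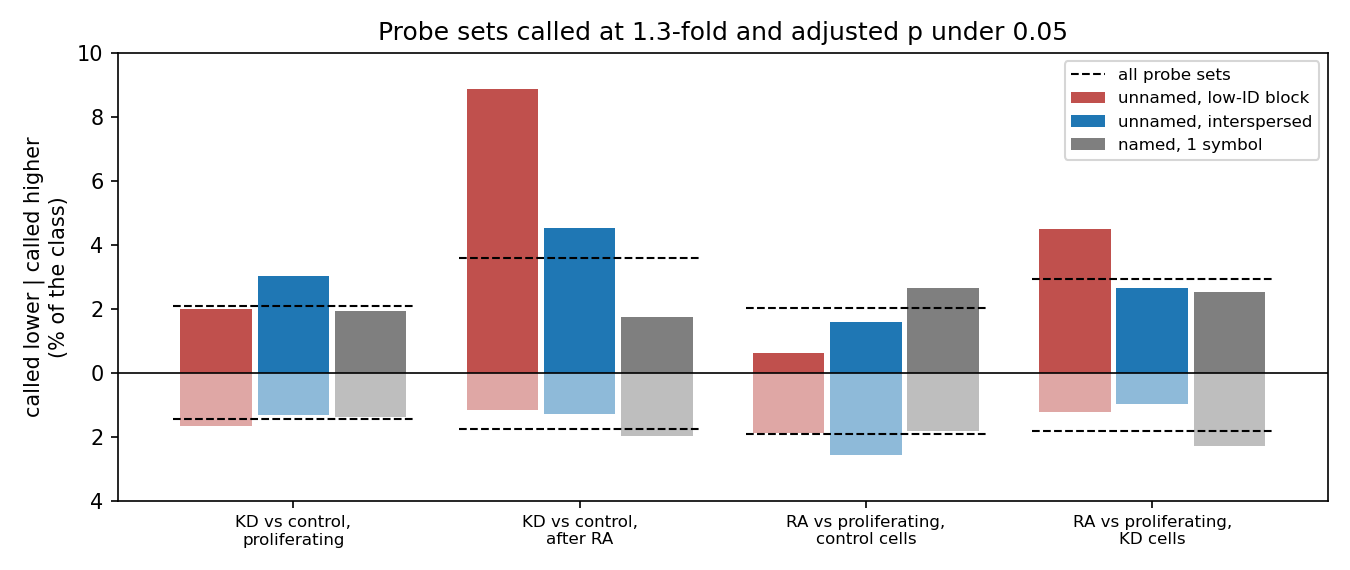
Share of each class of probe sets (%) called higher (above 0) or lower (below 0, paler) in 4 comparisons by limma, with dashed lines for all 35556 probe sets. The low-ID block stood out after RA in KD cells, with 8.87% called higher against 3.58% of all probe sets.

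RA against proliferating cells was the second question. In control cells 395 unnamed sets were called (3.25%, against 3.94% of all probe sets and 4.46% of single-symbol sets), 128 higher and 267 lower with RA, where 2.02% of all probe sets were called higher and 1.92% lower. The block gave 41 higher and 124 lower, and the interspersed sets 87 higher and 143 lower. Without control array 1 the falls in the block numbered 77, and without RA-treated control array 1 its rises numbered 27. With the block centred the split was 177 higher and 209 lower, and without the stretch of 134 sets 128 higher and 172 lower. In KD cells 579 were called (4.77%, against 4.75% of all probe sets), 444 higher and 135 lower, where 2.93% of all probe sets were called higher and 1.81% lower. The block gave 298 higher and 81 lower, and the interspersed sets 146 higher and 54 lower. The 146 became 89 without KD array 1 or 2, 92 without RA-treated KD array 1, 85 without RA-treated KD array 2 and 83 with KD arrays alone in the fit, and 54 became 35 without KD array 2. With the block centred the split in KD cells was 292 higher and 270 lower. Over the unnamed sets as a whole the shares called with RA were thus below or about equal to the share of all probe sets.

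Calls were then matched between comparisons that share no arrays. Both calls of a set came from the same fit and used the same estimate of its spread, so they are not independent. Of the block sets called between KD and control cells, 69 moved the same way while proliferating and after RA, which is 28.6% of the 241 in proliferating cells and 10.4% of the 665 after RA. For interspersed sets 166 recurred (69.2% of 240 and 51.4% of 323), and for single-symbol sets 383 (52.9% of 724 and 47.1% of 813). Of those 166, 130 belonged to the stretch of 134 sets described below; outside it 36 interspersed sets recurred (33.0% of 109 and 18.7% of 193), shares below those of the single-symbol sets. For RA, 25 block sets recurred between control and KD cells (15.2% and 6.60%), as did 70 interspersed sets (30.4% and 35.0%), none of them from the stretch, and 638 single-symbol sets (65.6% and 60.6%). The difference in recurrence between classes was not tested.

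The interspersed sets counted here are not all separate measurements. In all, 313 of the 5529 had 12 values identical to those of another unnamed set, and they held 79 distinct rows. None of them was identical to a named set, and the block held no identical rows. Counted once per distinct row, the interspersed calls were 158 and 232 for KD in proliferating and RA-treated cells and 145 and 147 for RA in control and KD cells. The largest group of identical rows held 50 sets with IDs from 10345436 to 10607429. Its single set of values averaged 9.47 ± 0.128 (SD, n = 3) in control, 9.80 ± 0.198 in RA-treated control, 9.32 ± 0.145 in KD and 9.94 ± 0.307 in RA-treated KD cells. It was called higher with RA in KD cells (0.62 on the log2 scale, limma adjusted p = 0.0187) and so gave 50 of the 146 interspersed rises there. In control cells its difference was 0.32 (limma adjusted p = 0.236).

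The longest run of unnamed sets without a named ID between them held 134 sets, with IDs from 10563891 to 10564157, and nearly all of it was higher in KD cells. It held 55 distinct rows, and its largest groups of identical rows had 33, 23 and 6 sets. By ID it lay above the single-symbol sets of Nipa1, Gabrg3, Gabra5 and Depdc1a and below 24 sets assigned jointly to Snord116l2, Snord116l1 and Gm26504. Gabrg3 and Gabra5 encode subunits of the receptor for the inhibitory transmitter GABA, and the Snord116 genes encode small nucleolar RNAs, which lie in repeated copies in an imprinted region. After these came a set assigned jointly to Snurf and Snrpn, an imprinted gene of the same region, and then the single-symbol set of Gkap1. The place in ID order gives the 134 sets no identity of their own.

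The median of the 134 sets was 6.81, 6.99 and 7.01 in the control arrays and 8.36, 8.47 and 8.53 in the KD arrays. After RA it was 6.63, 6.34 and 6.43 in control and 8.37, 8.50 and 8.50 in KD cells. By this median every KD array thus lay above every control array in both states. In either direction, 133 of the 134 sets in proliferating cells and 132 after RA had no overlap between the groups (34.1% and 31.7% of all probe sets). Among these, 10563891 was lower in KD cells in both states.

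In proliferating cells 131 of the 134 were called higher in KD cells, with a median difference of 1.47 (2.77-fold), where 2.07% of all probe sets were called higher. After RA 130 were called higher, with a median of 1.94 (3.82-fold), where 3.58% of all were. Over the 55 distinct rows the counts were 52 and 51 and the medians 1.44 and 1.91. Some distinct rows were nearly equal, such as those of 10564027 and 10564089 (both 1.47 in proliferating cells), and may not be separate measurements. RA lowered 92 of the 134 in control cells, with a median of -0.42, where 1.92% of all probe sets were called lower. Over the 55 distinct rows 25 were called lower there, with a median of -0.39. In KD cells 1 of the 134 was called lower with RA and the median was 0.02. The count of 92 became 57 without control array 2 or 3, 49 without RA-treated control array 2 and 55 with control arrays alone in the fit. The difference between these RA effects had a median of 0.45, but in the test of the interaction 1 of the 134 was called, and in the opposite direction. When the fit kept the upper 50% of probe sets by their highest group mean, 50 of the 134 were called with a more positive KD difference after RA. Most members of the stretch are highest in KD cells and could pass that filter through those groups. These 50 calls are therefore given as values only. The run made up 78.4% of the interspersed rises in KD cells while proliferating and 51.8% after RA, and 64.3% of the interspersed falls with RA in control cells. These shares count each identical row separately.

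The stretch had an edge. The sets not called after RA were 10563891, 10563893, 10563895 and 10563901, all near its lowest IDs. The first of these had a level of 10.2, the highest of the stretch, and differed by -0.29 in proliferating cells and -0.19 after RA. The set 10563895 read 3.31, 3.48 and 3.64 in control and 4.51, 4.55 and 4.66 in KD cells, but 3.75, 3.78 and 3.72 against 4.0, 4.02 and 4.02 after RA. Its KD difference was 1.10 in proliferating cells and 0.26 after RA, the smaller one under the 1.3-fold limit. These 4 sets were named after their values were seen.

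Among the named sets around the stretch 1 was called between KD and control cells. Of the 24 sets assigned to the Snord116 genes, none was called in proliferating cells (median 0.15) and 1 was called higher after RA (median 0.22). These 24 sets held 7 distinct rows. The set of Snurf and Snrpn differed by -0.21 and -0.17, Gabrg3 by -0.02 and 0.09, and Gabra5 by -0.04 and -0.13. Neither Depdc1a (0.20 and 0.04) nor Gkap1 (0.25 and 0.13) was called.

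**Figure D4:**
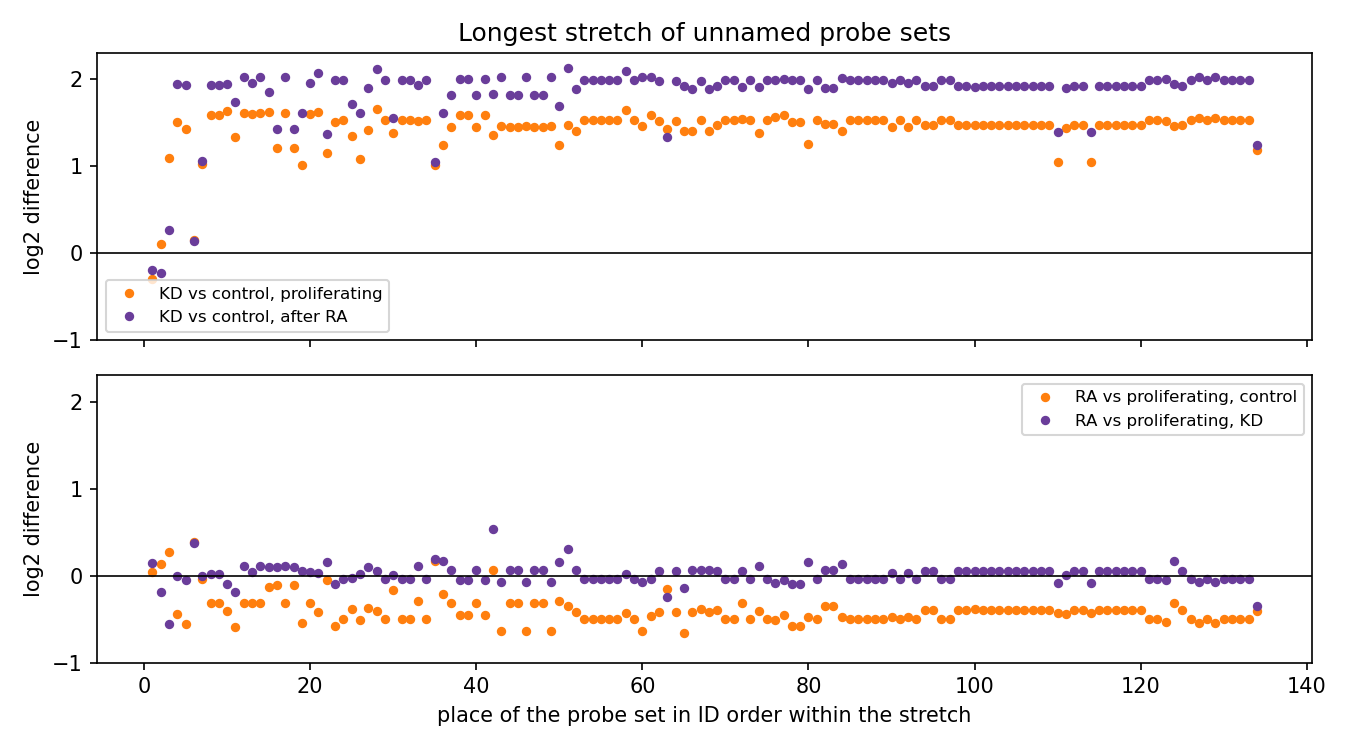
Log2 difference of each of the 134 unnamed probe sets of the longest stretch, in ID order, for KD against control (top) and RA against proliferating cells (bottom). Apart from a few sets of low ID, the KD differences lay between 1.0 and 2.1 in both states, and the RA differences lay below 0 in most sets in control cells and near 0 in KD cells. Equal heights can be identical rows.

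Single rises and falls are described for called sets whose arrays did not overlap between the groups, and "largest" is meant among these. The largest such rises in proliferating KD cells were those of 10519475 and 10563945, the latter from the stretch of 134 sets. The set 10519475 stood between the IDs of Akap9 and Gm8773 and was dim in control cells, at 3.87, 3.49 and 3.82, against 5.58, 5.72 and 5.35 in KD cells. After RA it read 3.96, 3.61 and 3.98 in control and 6.24, 6.10 and 5.44 in KD cells. Its difference was 1.82 ± 0.20 (SE, limma adjusted p = 0.000263) in proliferating cells and 2.07 ± 0.20 after RA (limma adjusted p = 9.93e-05). Akap9, the scaffold protein next to it by ID, differed by 0.18 and 0.10 and was not called.

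The set 10563945 read 5.52, 5.84 and 5.77 in control and 7.34, 7.39 and 7.38 in KD cells, and 5.34, 5.13 and 5.46 against 7.39, 7.38 and 7.49 after RA. The difference was 1.66 ± 0.09 (SE, limma adjusted p = 2.05e-06) and then 2.11 ± 0.09 (limma adjusted p = 2.25e-07). After RA the largest such rise was that of 10563991 from the same stretch, at 2.12 ± 0.20 (limma adjusted p = 8.26e-05). In these sets KD and control arrays did not overlap in either state.

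The largest such falls in proliferating KD cells lay in a run of 8 unnamed sets (IDs 10598071 to 10598085) whose next single-symbol IDs were ND3, a subunit of mitochondrial complex I, and Tarm1. Of the 8, 3 were called lower in proliferating KD cells and 4 higher with RA in KD cells, where 1.45% and 2.93% of all probe sets were. The run was picked because it held these large changes, so its counts are no independent result. The set 10598085 read 9.33, 9.07 and 9.11 in control and 7.63, 7.08 and 7.43 in KD cells, and after RA 9.45, 8.94 and 8.40 in control and 8.27, 9.79 and 10.1 in KD cells. It was lower in proliferating KD cells by -1.79 ± 0.42 (SE, limma adjusted p = 0.0186), and it rose by 2.01 ± 0.42 with RA in KD cells (limma adjusted p = 0.00851), while after RA its KD and control arrays overlapped. The interaction of 2.25 ± 0.59 was not called (limma adjusted p = 0.130). Its fall in proliferating cells missed the threshold without KD array 2 or 3 or without control array 1 or 3, with the adjusted p reaching 0.0716.

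Its neighbour in the run, 10598083, differed by -1.53 ± 0.27 (SE) in proliferating cells (limma adjusted p = 0.00459) and by -0.66 ± 0.27 after RA (limma adjusted p = 0.134). The set 10598081 read 7.98, 7.86 and 7.95 in control and 6.65, 6.63 and 6.31 in KD cells, and after RA 8.62, 8.34 and 8.32 against 7.10, 7.68 and 7.26. Its KD difference was -1.40 ± 0.15 and then -1.08 ± 0.15 (limma adjusted p = 0.000184 and 0.000817), without overlap in either state. The ND3 set differed by -0.06 and 0.04 and was not called.

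The other large fall after RA was that of 10344486 in the low-ID block, a dim set of level 3.40. It read 4.36, 3.75 and 4.31 in RA-treated control and 3.07, 3.04 and 2.38 in RA-treated KD cells. The difference of -1.31 ± 0.33 (SE, limma adjusted p = 0.0218) missed the threshold without KD array 3 or without control array 1 or 3 of the RA-treated groups, and with array weights.

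**Figure D5:**
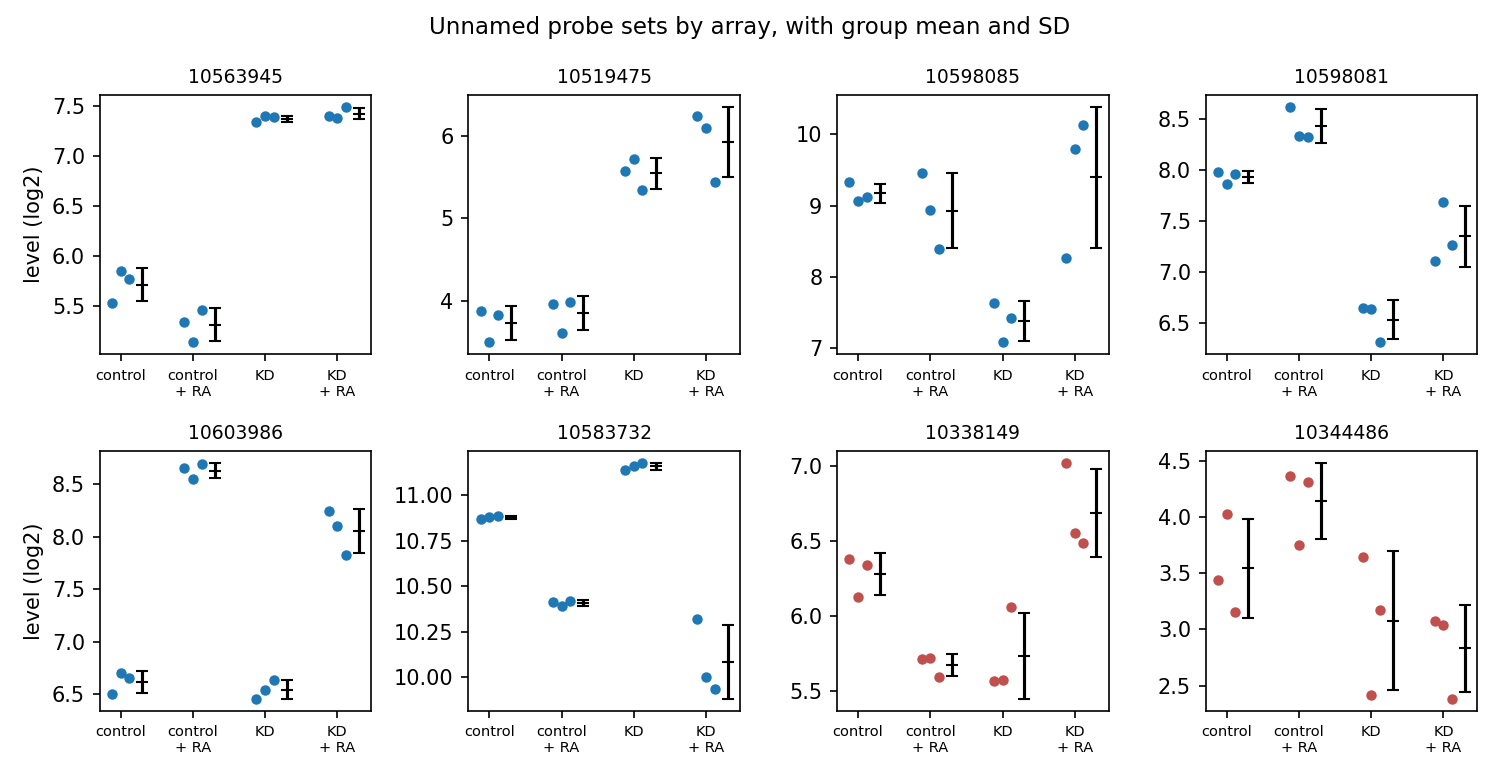
Level (log2) of 8 unnamed probe sets on each array, with the group mean and SD in black (n = 3); blue sets are interspersed, red sets are from the low-ID block. The vertical axes differ between panels and do not start at 0. The KD arrays of 10563945 lay above all its control arrays in both states, at 7.34 to 7.49 against 5.13 to 5.84.

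RA raised a group of interspersed sets in both kinds of cells. There were 8 unnamed sets with a called rise of at least 1.5 in control cells that was also called in KD cells; this limit was set after the values were seen. By ID 6 of them lay between Klhl13 and Akap17b and the other 2 between Gm4907 and Dock11, and 6 distinct rows lay behind the 8. Interleaved or close by in ID were 7 sets assigned jointly to 17 symbols, Slx among them, an X-linked gene family in many copies known from developing sperm. The median over the 8 sets was 6.46 ± 0.087 (SD, n = 3) in control and 8.41 ± 0.063 in RA-treated control cells, and 6.44 ± 0.149 in KD and 7.88 ± 0.209 in RA-treated KD cells. Rises ranged from 1.83 to 2.15 in control and from 1.298 to 1.52 in KD cells.

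After RA the 8 sets were called lower in KD than in control cells, with differences of -0.77 to -0.51, while in proliferating cells none was called (-0.08 to 0.05). Of all probe sets 1.77% were called lower in KD cells after RA. The 8 sets were picked by their rise in control cells, which uses the same RA-treated control arrays. That choice favours lower KD values after RA and smaller rises in KD cells, so these differences are no independent result. For none of the 8 was the interaction called, so the difference between the RA rises was not shown by its own test. The 7 sets assigned to these 17 symbols held 3 distinct rows and rose by 1.57 to 2.10 in control and 1.04 to 1.56 in KD cells. A further set that includes Slx rose by 0.44 in control cells and differed by 0.18 in KD cells. The medians over these 7 sets, 2.10 and 1.56, lay beside those of the 8 unnamed sets, 2.005 and 1.47. They count each identical row separately and equal the highest values of the 7.

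The largest such rise with RA in control cells was that of 10603911, which read 3.16, 3.45 and 3.54 before and 5.76, 5.29 and 5.54 after RA. In KD cells it read 3.47, 3.04 and 3.59 before and 4.92, 5.05 and 4.31 after. The rise was 2.15 ± 0.21 (SE, limma adjusted p = 8.67e-05) in control and 1.39 ± 0.21 in KD cells (limma adjusted p = 0.00142). It was followed by 10603986, which shares its row with another set and rose from 6.50, 6.70 and 6.65 to 8.65, 8.55 and 8.69 in control cells, by 2.01 ± 0.10 (limma adjusted p = 1.27e-06). In KD cells it rose from 6.46, 6.55 and 6.63 to 8.24, 8.10 and 7.82. In KD cells the largest such rise beside 10598085 was that of 10599096, at 1.52 ± 0.11 (limma adjusted p = 9.73e-06). The single-symbol neighbours by ID, Klhl13, Akap17b, Gm4907 and Dock11, were not called in any comparison.

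In KD cells the largest such fall with RA was that of 10583732, a bright set next to Smarca4, a chromatin remodelling ATPase, and Angptl8. It read 10.9 in each control array and 11.1, 11.2 and 11.2 in KD arrays, and after RA 10.4 in each control array and 10.3, 10.0 and 9.94 in KD arrays. The fall was -1.08 ± 0.08 (SE, limma adjusted p = 1.40e-05) in KD and -0.47 ± 0.08 in control cells (limma adjusted p = 0.00316), with an interaction of -0.60 ± 0.11 (limma adjusted p = 0.0592). Neither Smarca4 (0.09 in control and -0.07 in KD cells) nor Angptl8 (0.07 and -0.08) was called.

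The other named falls belonged to the low-ID block. The set 10343057 fell by 0.81 ± 0.17 (SE) in KD cells, from 5.88, 6.42 and 6.08 to 5.03, 5.64 and 5.27 (limma adjusted p = 0.00844). In control cells 10338547 fell by 1.25 ± 0.18, from 4.81, 4.35 and 4.92 to 3.37, 3.21 and 3.75 (limma adjusted p = 0.00117). The set 10339333, from 2.54, 3.72 and 3.53 to 1.59, 2.23 and 2.35, fell by 1.21 ± 0.30 (limma adjusted p = 0.0245), which missed the threshold without control array 2 or 3 or without RA-treated control array 1, and when the fit held control arrays only. In KD cells 10338547 differed by -0.44 and 10339333 by 0.07, and neither was called.

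Most of a shorter stretch fell with RA. It held 12 unnamed sets (11 distinct rows) with IDs from 10602271 to 10602367, between Mir448 and Alas2, a haem synthesis enzyme. Its median was 10.9 ± 0.042 (SD, n = 3) in control, 10.5 ± 0.048 in RA-treated control, 10.8 ± 0.034 in KD and 10.2 ± 0.089 in RA-treated KD cells. With RA 11 of the 12 were called lower in control cells (median -0.44) and 11 in KD cells (median -0.57), where 1.92% and 1.81% of all probe sets were called lower. The 11 called sets fell by nearly equal amounts, with differences of -0.443 to -0.420 in control and -0.593 to -0.540 in KD cells. Sets this alike may not be separate measurements. The other set, of level 4.08, differed by 0.10 in control and -0.14 in KD cells and was not called. The interaction was called for none of the 12.

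In all there were 14 stretches of at least 8 unnamed sets, holding 356 sets; this length was set after the values were seen. Only the stretch of 134 and that of 12 had over 50% of their members called in 1 direction in any comparison. The 91 sets above the last named ID, next to Srsy, had 3 called higher and 1 lower in proliferating KD cells and 5 and 2 after RA, near the shares of all probe sets (3.52% and 5.35% called in either direction). In the 10 sets below COX2, a mitochondrially encoded subunit of cytochrome c oxidase, the median level was 13.3, and 2 were called lower in proliferating KD cells and 1 after RA, where 1.45% and 1.77% of all probe sets were; counts this small in 10 sets are given as values only. A run of 22 sets between Ptprf and Cdc20 had no call in any comparison. Outside the stretch of 134, 2.02% of 5395 interspersed sets were called between proliferating KD and control cells, 3.58% after RA, 2.56% with RA in control and 3.69% with RA in KD cells. Each of these lay below the share of all probe sets given above.

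Neighbours in ID order moved together only weakly in general. Over 4524 pairs of an interspersed set and an adjacent single-symbol set, the mean KD difference correlated at 0.11 and the mean RA difference at 0.08. Over 17422 pairs of adjacent single-symbol sets these were 0.21 and 0.08, and over 6611 pairs within the low-ID block 0.03 and -0.02. All pairs come from the same 12 arrays, and these values are descriptions across probe sets.

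The last comparison asked whether the KD difference itself changed with RA. The interaction was called for 42 unnamed sets (0.346%, against 0.281% of all probe sets), 37 with a more positive KD difference after RA and 5 with a more negative one (0.16% and 0.121% of all probe sets). The block held 29 of them and the interspersed sets 13. With the block centred on its own array medians 55 were called, 21 positive and 34 negative. The count was unstable, as it fell to 1 without control array 2.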

How the data were processed

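The authors deposited log2 values for 12 arrays, after RMA background correction, quantile normalisation and gene-level summary in R (oligo, limma and genefilter; versions not given in the sources used here). Values were used as deposited. Probe sets without a symbol in the GEO platform annotation were the members; single-symbol sets were the main comparator. All 35556 sets entered 1 limma fit (version 3.58.1, R 4.3.3) with a mean per group, no filter and no block. Calls needed a Benjamini-Hochberg adjusted p under 0.05 over all sets and 1.3-fold. The fit was tested on simulated data with 200 changed sets. Named sets were, per comparison, the 2 largest called rises and falls among unnamed sets without overlap (overlap allowed for the interaction), and the 2 highest, lowest and most variable, each with the nearest single-symbol sets by ID. Members, lists and tests were chosen with earlier results of these data known. Alternatives covered filters, centring, weights, prior variance, replicate block and left-out arrays. Precision is limited by the few arrays per group.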

Additional observations from a re-analysis of the deposited data

Results flagged for a closer look

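The KD difference changed with RA (interaction called by limma) in 42 unnamed probe sets, which is 0.346% of them against 0.281% of all probe sets, and the count was 1 to 44 when 1 array was left out and 5 with the replicate block. Among the called sets, the 2 largest positive values were 1.56 for 10338149 and 1.42 for 10344598, both in the low-ID block. The set 10338149 read 6.38, 6.12 and 6.34 in control and 5.57, 5.57 and 6.06 in KD cells, but after RA 5.71, 5.72 and 5.59 in control and 7.02, 6.55 and 6.49 in KD cells, so that the KD arrays were below the control arrays before RA and above them after it (limma adjusted p = 0.0335). The set 10344598 read 7.81, 7.68 and 7.54 against 6.95, 6.55 and 7.01, and after RA 7.28, 7.05 and 7.37 against 7.55, 8.07 and 7.83 (limma adjusted p = 0.0417).

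Among the called sets, the 2 largest negative values were -0.83 for 10563895, at the edge of the stretch of 134 sets (limma adjusted p = 0.0224), and -0.76 for 10341095 in the low-ID block (limma adjusted p = 0.0469). The latter read 8.95, 9.30 and 9.05 in control and 9.64, 9.61 and 9.84 in KD cells, and 9.39, 9.32 and 9.42 against 9.22, 9.28 and 9.14 after RA. In the order named, these 4 calls were lost in 9, 11, 5 and 12 of the 12 fits that left out 1 array, so the call of 10341095 held in none of them. The adjusted p-values reached 0.0979, 0.0951, 0.0725 and 0.113.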

How the results depend on the processing

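No named set changed sign under any alternative run that kept it. This was largely fixed in advance. For sets picked without overlap, leaving out 1 array cannot reverse the sign, and filters and prior variance leave the differences themselves unchanged. Centring the low-ID block turned the balance of rises and falls among KD calls after RA and interaction calls, as given above. Counts of unnamed sets called are given for KD in proliferating cells, KD after RA, RA in control cells and RA in KD cells, in that order. They were 927, 1745, 850 and 1186 without the fold limit, and 248, 336, 238 and 207 without the low-ID block; leaving out 1 array gave 372 to 506, 749 to 1152, 315 to 425 and 403 to 609. The other alternatives stayed within 1.5 times. The interaction count of 42 was less stable. It was 65 in the upper 50% by interquartile range, 271 in the upper 50% by highest group mean and 25 with arrays centred on named sets. It was 89 with array weights, 155 with a trended robust prior, 26 without the block and 1 to 44 without 1 array (1 without control array 2). Deviations of same-numbered arrays correlated weakly (r from -0.057 to 0.152 over 18 pairs, against -0.201 to 0.106 over 36 other pairs). Values this weak over all probe sets cannot decide if the numbers pair the arrays. With the replicate block the counts were 468, 993, 408 and 584, and 5 for the interaction. Without the low-ID block the median level of the unnamed sets was 6.57 and their spread 0.104; without 1 array the level was 6.80 to 6.82. Centring the block, giving it its own prior variance, leaving out the 134 sets and counting identical rows once were chosen after seeing the data. In the 134-set stretch, leaving out 1 array kept 130 to 131 rises in KD cells while proliferating and 130 after RA, and 49 to 97 falls with RA in control cells. The causes were not tested.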
